A study of Mus musculus with 9 samples.

Results

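Respiratory chain subunits were followed in RNA of the cochlear membranous labyrinth of mice, the tissue that lines the hearing organ within the bone. They were chosen by symbol: mt-Nd, mt-Co, mt-Cytb and mt-Atp genes of the mitochondrial genome, and the nuclear Nduf, Sdh, Uqcr, Cox and Atp5 subunit genes, with a mean of at least 1 TPM over 6 libraries. TPM (the kallisto unit for transcript abundance) corrects for the length of a transcript and for the size of the library. Of 25579 symbols, 96 matched by name and 94 reached that mean, 13 mitochondrially encoded and 81 nuclear encoded. The 2 below it were Cox7b2, at 0.0631 TPM, and the pseudogene Cox5b-ps, at 0.594 TPM. The lowest members were Cox4i2 at 1.85, Cox6b2 at 6.13 and Ndufa4l2 at 6.94 TPM. All 94 members passed the filter on low values, and 93 had a mean of at least 1 TPM in both groups. The exception was Cox4i2, which was under 1 TPM in treated libraries and entered through the homozygous ones.

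The groups were 3 libraries of the genotype hMPZL2Q74X/Q74X, 3 of the same genotype treated with AAV-ie-ABE8eWQ-SpRY:sgRNA3 and 3 of Mpzl2 WT, all taken at postnatal day 28. The WT libraries could be used for 1 member only. The allele is a humanized MPZL2 gene with a nonsense variant, and by the sample titles both groups compared were homozygous for it. The genotype field of the labels disagrees with the titles, since the number in the name of the second allele counts upward within each group there (as does that of the WT gene), and groups were taken from the titles. The agent is an adeno-associated virus that delivers an adenine base editor with its guide, and it was injected at postnatal day 2 by way of the round window membrane. The labels name no injection for the untreated mice, so the effects of virus, editor, guide and injection cannot be told apart. They do not say how many animals gave a library or whether animals were pooled. The design text states the aim of finding molecular pathways behind the histopathology of the variant.

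The respiratory chain sits in the inner membrane of mitochondria. Complexes I to IV pass electrons from nutrients to oxygen and pump protons, and complex V, the ATP synthase, uses the returning protons to make ATP. The chain is built from 2 genomes: the mitochondrial genome encodes hydrophobic core subunits of complexes I, III, IV and V, and nuclear genes encode all of complex II and the remaining subunits. Mitochondrial genes are read from each strand as long precursors that are then cut into messengers. The levels of genes of the same strand relative to each other are therefore set largely after transcription. In the cochlea, marginal cells of the stria vascularis, which keep up the potential of the endolymph, are rich in mitochondria.

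Treated libraries 1 and 2 were close to identical. Over 2824 genes at 1 to 5 TPM the spread of their log2 ratio (scaled median absolute deviation) was 0.0686, against 0.831 to 1.05 between homozygous libraries and 1.57 between treated libraries 1 and 3. Their TPM values were averaged and used as 1 sample, which leaves n = 2 for the treated group. The libraries held 16529 to 17281 genes at 1 TPM or more, and their depth is unknown because TPM keeps none. Strial marginal cell markers summed to 747 to 1885 TPM in homozygous and 1289 to 2345 TPM in treated libraries, and hair cell markers to 51.1 to 102 and 122 to 274 TPM, with none of the 6 genes of either list at 0 throughout. Markers of other cells differed between libraries as well. The 6 macrophage genes summed to 71.1 to 109 TPM in homozygous and 357 to 410 TPM in treated libraries, with 4 higher by the test described below. The 4 T cell genes summed to 1.44 to 4.64 and 61.7 to 105 TPM, with all 4 higher. The 5 bone genes summed to 233 to 909 and 84.8 to 98.8 TPM, with 1 lower. The 6 forebrain neuron genes summed to 156 to 193 TPM in homozygous libraries, 1258 and 1237 TPM in treated libraries 1 and 2 and 178 TPM in treated library 3, with Neurod6 at 0 in all homozygous libraries and 0 of 3 tested genes called. The 4 Schwann cell genes summed to 8341, 4604 and 9743 TPM in homozygous and 4633, 4525 and 3863 TPM in treated libraries, with 0 called by limma, 1 lower at an unadjusted p under 0.05, 4 of 4 below 0 and a median log2 fold change of -0.61. The 4 erythroid genes summed to 143 to 1534 and 640 to 955 TPM, with 0 called by limma and 0 at an unadjusted p under 0.05. The part of these cell types in the results on the respiratory chain was not tested.

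The first 60 coding bases are shown for 4 members that fell (mt-Nd6, mt-Nd2, Ndufa5 and Atp5mpl) and 4 that did not pass the test (mt-Co3, mt-Co1, Atp5b and Ndufs7), so that their base composition can be compared. These examples were picked after their values were seen and are not in every case the extremes. They are read 5′ to 3′ from GENCODE M21 transcripts (GRCm38), with G and C in capitals.
mt-Nd6: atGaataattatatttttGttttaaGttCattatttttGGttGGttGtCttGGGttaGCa
mt-Nd2: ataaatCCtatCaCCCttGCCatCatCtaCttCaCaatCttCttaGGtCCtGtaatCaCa
mt-Co3: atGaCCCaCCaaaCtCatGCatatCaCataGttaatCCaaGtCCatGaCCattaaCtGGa
mt-Co1: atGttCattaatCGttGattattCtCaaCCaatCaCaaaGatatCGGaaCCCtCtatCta
Ndufa5: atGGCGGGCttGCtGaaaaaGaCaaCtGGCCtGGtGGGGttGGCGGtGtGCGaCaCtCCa
Atp5mpl: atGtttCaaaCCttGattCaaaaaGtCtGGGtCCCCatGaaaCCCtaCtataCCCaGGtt
Atp5b: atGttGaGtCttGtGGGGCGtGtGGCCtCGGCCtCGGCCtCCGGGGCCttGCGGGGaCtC
Ndufs7: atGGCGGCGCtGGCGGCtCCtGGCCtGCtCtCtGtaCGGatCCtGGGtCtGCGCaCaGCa
Over the whole coding sequence G and C made up 34.1% of mt-Nd6, 35.7% of mt-Nd2, 38.9% of mt-Co3 and 39.9% of mt-Co1, and 47.3% of Ndufa5, 42.9% of Atp5mpl, 53.1% of Atp5b and 61.5% of Ndufs7. The order within these examples does not hold for all members. Atp5g1 and Cox7a1, which fell, were at 56.7% and 56.4%. Atp5j and mt-Atp8, which did not pass, were at 43.4% and 31.9%. The messenger of mt-Nd6, the member read from the opposite strand to the other 12 mitochondrial genes, was 43.7% T and 6% C, against 27.4% T and 27.7% C in mt-Nd2.

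Mitochondrially encoded members took a smaller share of RNA in every treated library than in every homozygous library, and the nuclear encoded members did so by less. The mitochondrial share of TPM was 13.6%, 10.7% and 13.4% in homozygous libraries 1 to 3, and 2.17%, 2.22% and 6.16% in treated libraries 1 to 3. The nuclear members took 1.41%, 1.48% and 1.42% in homozygous libraries and 0.853%, 0.85% and 1.29% in treated libraries. Within a library, the summed TPM of mitochondrial members was 9.61, 7.24 and 9.41 times that of nuclear members in homozygous libraries, and 2.54, 2.61 and 4.78 times in treated libraries. The groups did not overlap in any of these 3 measures, and treated library 3 lay between treated libraries 1 and 2 and the homozygous libraries in each. As group means the ratio was 8.75 ± 1.32 (SD, n = 3) and 3.68 ± 1.56 (SD, n = 2). The mean mitochondrial share in treated libraries was 0.332 of the homozygous mean, and 0.175 without treated library 3. In bulk tissue, fewer cells of a type and less of these RNAs per cell cannot be told apart.

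**Figure D1:**
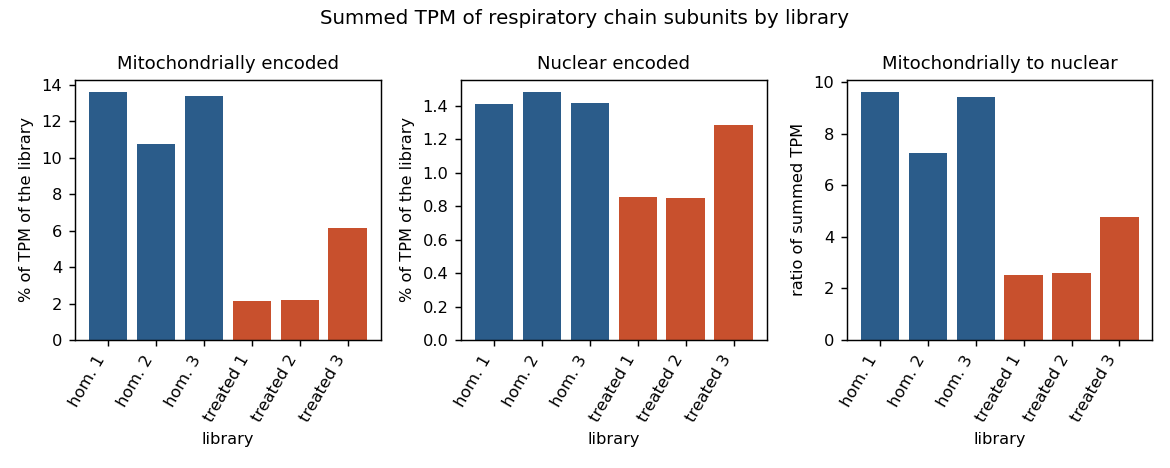
Share of TPM on mitochondrially encoded members (left) and nuclear encoded members (middle), and the ratio of the summed TPM of both (right), as 1 bar a library, blue for homozygous and orange for treated. The ratio lies between 7.24 and 9.61 in homozygous and between 2.54 and 4.78 in treated libraries.

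Each gene was tested with limma on log2(TPM + 1) over all 17102 tested genes, two-sided, with Benjamini-Hochberg adjustment and a threshold of 0.05. Of 13 mitochondrially encoded members 3 fell and 0 rose, and of 81 nuclear encoded members 16 fell and 0 rose. Among all tested genes 0.965% were called lower and 3.44% higher, 4.41% in all. At an unadjusted p under 0.05, 11 mitochondrial and 37 nuclear members were lower, beside 7.92% of all tested genes, and 0 and 1 were higher, beside 18.8%. The median log2 fold change was -2.43 for mitochondrial and -0.59 for nuclear members, beside 0.20 for all tested genes, and under median-of-ratios scaling it was -2.63, -0.79 and 0.02. All 13 mitochondrial and 72 of the 81 nuclear members lay below the median of all tested genes. Every treated library was below every homozygous library for 11 of 13 mitochondrial and 42 of 81 nuclear members, beside 14.8% of all tested genes. These calls rest on few samples. Without homozygous replicate 1, 2 or 3 the count was 0 mitochondrial members each time and 0, 1 and 0 nuclear members, while all genes called went from 754 to 63, 183 and 70. Without treated replicate 3 it was 12 and 43, and with treated replicate 3 alone 1 and 6. Over those 5 fits the median stayed between -3.30 and -1.47 for mitochondrial and between -1.02 and -0.23 for nuclear members. Without the mean-variance trend 0 mitochondrial and 8 nuclear members were called lower.

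Mitochondrially encoded members differed widely among themselves. The 3 that fell, mt-Nd2, mt-Nd4 and mt-Nd6, encode membrane subunits of complex I. The TPM of mt-Nd6 was 9937, 5908 and 9183 in homozygous libraries and 239, 237 and 1256 in treated libraries. That is 2.85% of the homozygous mean in treated libraries 1 and 2 and 15% in library 3, and the log2 fold change was -3.89 (standard error 0.68, limma adjusted p = 0.0357). For mt-Nd2 the levels were 4254, 2865 and 3508 TPM against 113, 114 and 633 TPM, which is -3.70 as log2 fold change (limma adjusted p = 0.0379). For mt-Nd4 they were 7387, 4946 and 5766 TPM against 316, 319 and 1228 TPM, which is -3.25 as log2 fold change (limma adjusted p = 0.0351). In each of the 3 genes treated library 3 stood apart from treated libraries 1 and 2 and still lay below every homozygous library.

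The ATP synthase and cytochrome b genes lay low without passing. mt-Atp8, a small subunit of the proton channel region, was at 33786, 24040 and 33624 TPM in homozygous and 789, 1505 and 5928 TPM in treated libraries (log2 fold change -3.53, limma adjusted p = 0.0517). It was the most abundant mitochondrial member by TPM in every homozygous library, at 22.5% to 25.3% of their summed TPM, and was at 3.65%, 6.81% and 9.66% in treated libraries. mt-Atp6, whose reading frame overlaps that of mt-Atp8 by 43 bases on the same messenger, had a log2 fold change of -2.82, and mt-Cytb, the catalytic core of complex III, one of -2.36 (limma adjusted p = 0.0735 and 0.056).

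The complex IV genes mt-Co1 and mt-Co3 stood at the other end, and mt-Co2 did not. mt-Co1, which holds the site where oxygen is reduced, was at 16604, 18201 and 18982 TPM in homozygous libraries and at 11963, 11815 and 24309 TPM in treated libraries. Treated library 3 thus had the highest level of the 6 and treated libraries 1 and 2 the lowest, and the log2 fold change was -0.07 (standard error 0.56, limma adjusted p = 0.946). mt-Co1 made up 12.3% to 17.02% of summed mitochondrial TPM in homozygous libraries and 55.4%, 53.4% and 39.6% in treated libraries. mt-Co3 was at 8679, 9010 and 9598 TPM against 3109, 3066 and 8695 TPM, so that treated library 3 overlapped the homozygous range (limma adjusted p = 0.359). mt-Co2, the docking subunit for cytochrome c, had 11.2% of its homozygous mean in treated libraries 1 and 2 and 38.04% in library 3 (log2 fold change -2.27, limma adjusted p = 0.0625).

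Neighbours on the mitochondrial genome were far apart in these values. In genome order (GRCm38), mt-Nd1, mt-Nd2, mt-Co1 and mt-Co2 had log2 fold changes of -2.43, -3.70, -0.07 and -2.27. Next came mt-Atp8 and mt-Atp6, named above, then mt-Co3 at -0.81, mt-Nd3 at -2.01, mt-Nd4l at -2.49 and mt-Nd4 at -3.25. The last were mt-Nd5 at -1.47, mt-Nd6 on the other strand at -3.89, and mt-Cytb. mt-Nd4l and mt-Nd4, which share a messenger and overlap by 7 bases, had 8.38% and 5.26% of their homozygous means in treated libraries 1 and 2. All 13 genes were higher in treated library 3 than in treated libraries 1 and 2. Copies in the nuclear genome can take or add reads of mitochondrial genes. For 8 of the 13 genes GENCODE M21 holds a transcript of another gene with at least 95% identity over at least 50% of the length. Among the 8 are mt-Co1, mt-Co3 and, of the 3 that fell, mt-Nd4. Of the copies 0 has a row in the table used here, so these 8 levels are uncertain. The same holds for 11 nuclear members, among them Atp5k, Cox7c and Uqcrb.

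**Figure D2:**
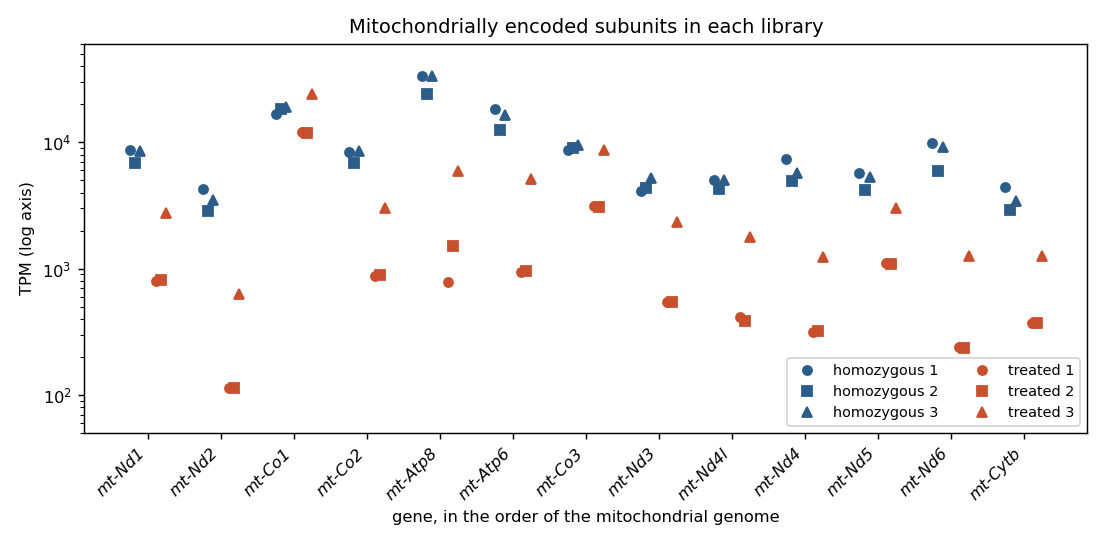
TPM of the 13 mitochondrially encoded members on a log axis, in genome order, with 1 point a library (blue homozygous, orange treated; circle, square and triangle for libraries 1, 2 and 3). Treated libraries lie below homozygous libraries except for mt-Co1 and mt-Co3, where treated library 3, at 24309 and 8695 TPM, does not.

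Complex I takes electrons from NADH. Of its 38 nuclear members 7 fell, beside 0.965% of all tested genes called lower. These were 6 of 31 accessory subunits and 1 of 7 core subunits, the core being the subunits that carry the electron path. The largest change was in Ndufa5, an accessory subunit, at 298, 254 and 245 TPM in homozygous and 33.6, 33.1 and 70.3 TPM in treated libraries (log2 fold change -2.42, standard error 0.31, limma adjusted p = 0.0186). Ndufa4, counted here with complex I for its name but now placed in complex IV, was at 88.4, 77.6 and 82.7 TPM against 12.5, 13.5 and 25.4 TPM (log2 fold change -2.12). Ndufc1, Ndufb9, Ndufb10 and Ndufb5, further accessory subunits, fell with log2 fold changes of -1.50, -1.33, -1.07 and -0.94. Ndufv2, an iron-sulfur subunit of the core, fell by 1.22 on the log2 scale, with means of 309 ± 18.7 and 135 ± 41.8 TPM (SD, n = 3 and 2).

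The other core subunits of complex I did not pass and lay on both sides of 0. The median log2 fold change was -0.04 over the 7 core subunits, against -0.72 over the 31 accessory subunits. Under the adjustment for GC content and length given below, it was -0.35 over the 7 core subunits. Over the 30 accessory subunits with a value it was then -0.77. The difference between core and accessory subunits was not tested. Ndufs7, an iron-sulfur subunit next to the quinone site, was at 154, 169 and 158 TPM in homozygous and 201, 204 and 310 TPM in treated libraries, or 0.64 as log2 fold change (limma adjusted p = 0.13). Under the same adjustment Ndufs7 was at 0.15. It and Ndufa4l2 were the 2 members for which every treated library lay above every homozygous library, beside 28% of all tested genes. Ndufc1 had the highest mean TPM of the nuclear complex I members, and Ndufs4, an accessory subunit, came next, at 263 ± 40.5 TPM (SD, n = 3) and 231 ± 36.4 TPM (SD, n = 2).

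Complex II, which links the citric acid cycle to the chain, is wholly nuclear encoded, and 0 of its 4 subunits passed limma while 1 had an unadjusted p under 0.05. Sdha, the flavoprotein that oxidises succinate, was at 342, 297 and 265 TPM in homozygous and 159, 178 and 224 TPM in treated libraries (log2 fold change -0.62, limma adjusted p = 0.122). Sdhd, a membrane anchor, was at 85.9 ± 10.4 and 71 ± 4.79 TPM, and Sdhb, the iron-sulfur subunit, at 78.3 ± 11.1 and 73.04 ± 8.26 TPM (SD, n = 3 and 2). Sdhc, the other anchor, had 0.38 as log2 fold change (standard error 0.36), and -0.18 without treated replicate 3.

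Complex III passes electrons from ubiquinol to cytochrome c. Of its 8 nuclear subunits 1 fell, Uqcrb, a small subunit near the quinone pocket, at 248, 200 and 160 TPM in homozygous and 43.9, 43.3 and 63.2 TPM in treated libraries (log2 fold change -1.91, limma adjusted p = 0.0199). The groups did not overlap. Of all tested genes 0.965% were called lower, and 14.8% had every treated library below every homozygous library. The other 7 subunits had log2 fold changes from -0.59 to 0.22. Uqcrh and Uqcrq, the most abundant ones on average, were at 345 ± 73.3 and 275 ± 30.4 TPM and at 299.5 ± 48.3 and 362 ± 157 TPM (SD, n = 3 and 2), and Uqcrq, at 0.22, was at -0.24 without treated replicate 3.

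Complex IV, cytochrome c oxidase, had 14 of 14 nuclear members below 0 (beside 39.0% of all tested genes), their median being -0.93. Of these members 4 fell, beside 0.965% of all tested genes. Cox7b was at 473, 430 and 456 TPM in homozygous and 93.2, 118 and 159 TPM in treated libraries (log2 fold change -1.80, standard error 0.22, limma adjusted p = 0.015). Cox5a, which binds the matrix side of the complex, was at 106, 114 and 99.2 TPM against 21.5, 24.1 and 40.5 TPM. Cox7c was at 255, 250 and 244 TPM against 119, 116 and 134 TPM, the closest agreement between treated libraries of the 4. Cox7a1 is given with its partner below. Cox6c and Cox4i1 were the most abundant nuclear members of the complex on average. Cox6c was at 505 ± 45.9 and 207 ± 113 TPM (SD, n = 3 and 2; limma adjusted p = 0.0656). Cox4i1, the regulatory subunit that joins early in assembly, was at 528, 653 and 532 TPM in homozygous and 414, 413 and 652 TPM in treated libraries, a log2 fold change of -0.13, which was 0.20 with treated replicate 3 alone.

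Complex V is a rotary enzyme of a soluble head, F1, a ring of c subunits, a peripheral stalk and small membrane subunits. The F1 head and the small membrane subunits lay far apart. Of the 5 small membrane subunits 3 fell, beside 0.965% of all tested genes. All 5 were lower in every treated than in every homozygous library, beside 14.8% of all tested genes. Their median log2 fold change was -2.03. Atp5mpl was at 160, 134 and 156 TPM in homozygous and 28.9, 27.9 and 45.1 TPM in treated libraries, or -2.03 as log2 fold change (limma adjusted p = 0.0139). Atp5md, a subunit known for its part in joining ATP synthase dimers, was at 276, 260 and 338 TPM against 62, 60.5 and 92.2 TPM. Atp5k, also found at the dimer contact, was at 23.3, 12.5 and 23.3 TPM against 1.48, 1.48 and 3.25 TPM. Their log2 fold changes were -1.93 for Atp5md and -2.62 for Atp5k. Atp5j2 and Atp5l, with log2 fold changes of -2.32 and -0.77, did not pass.

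Of the 5 F1 genes none passed limma (0 calls, and 1 lower at an unadjusted p under 0.05), and their median log2 fold change was 0.12. Above 0 lay 3 of them and below 0 lay 2, Atp5c1 at -0.43 and Atp5e at -0.52. Atp5c1 was lower in every treated than in every homozygous library, as were 14.8% of all tested genes. Under the adjustment for GC content and length given below, the F1 median was -0.24. That of the 4 small membrane subunits with a value was -2.23. Atp5b, the catalytic beta subunit and the most abundant nuclear member of the chain on average, was at 1742, 1851 and 1886 TPM in homozygous and 1791, 1652 and 2294 TPM in treated libraries. Its log2 fold change was 0.12 (standard error 0.25), and -0.081 under median-of-ratios scaling. Atp5a1, the alpha subunit, was at 470, 549 and 481 TPM against 508, 508 and 584 TPM. Atp5d, the delta subunit, had a log2 fold change of 0.35, and of -0.017 without treated replicate 3. Of the c ring genes, which encode the same mature protein, Atp5g1 fell (75.9 ± 4.83 against 33.1 ± 7.35 TPM; SD, n = 3 and 2; limma adjusted p = 0.0363). Atp5g3 and Atp5g2 had log2 fold changes of -0.41 and 0.06. The 4 peripheral stalk genes had 0 calls by limma, 2 at an unadjusted p under 0.05, and a median of -0.60. The difference between these subunit classes was not tested.

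**Figure D3:**
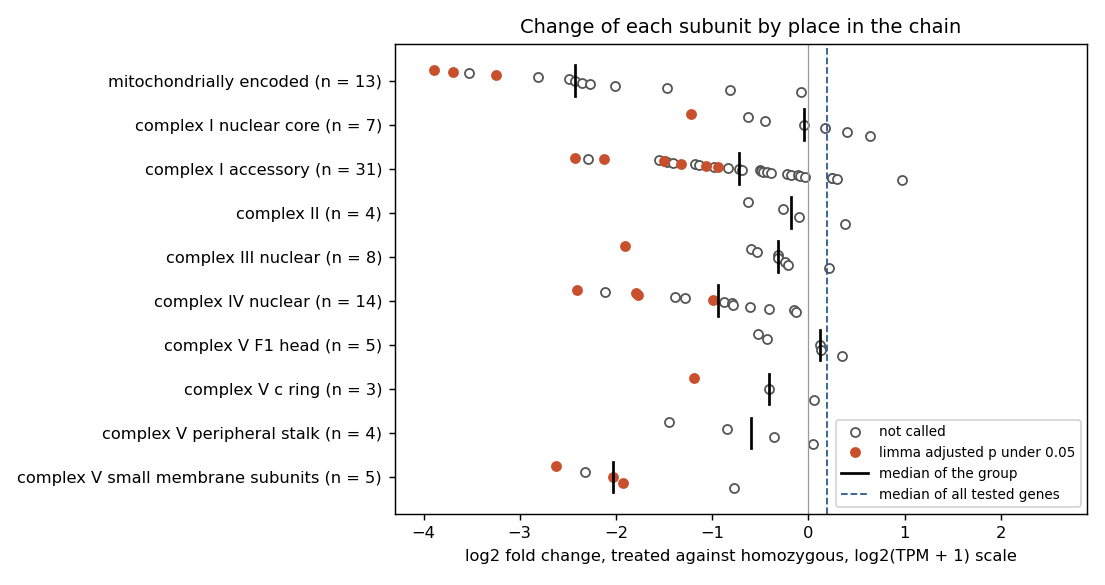
Log2 fold change of the 94 members, treated against homozygous, by place in the chain, with filled points for the 19 past the threshold, a black bar for each class median, and a dashed line for the median of all tested genes (0.20). The class medians run from -2.43 for mitochondrially encoded members to 0.12 for the F1 head.

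The split by complex carried over to the balance of the 2 genomes. In complex I the summed TPM of mitochondrial members was 9.94, 7.37 and 9.98 times that of nuclear members in homozygous libraries and 1.51, 1.46 and 3.44 times in treated libraries. In complex III the ratio was 2.94, 1.70 and 2.18 against 0.364, 0.381 and 0.839. In complex V it was 11.5, 7.46 and 10.2 against 0.498, 0.723 and 2.28. In complex IV, where mt-Co1 dominates the sum, it was 11.3, 10.9 and 12.5 against 12.02, 11.8 and 16.2. The groups were apart in complexes I, III and V and overlapped in complex IV.

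Isoform pairs of complex IV and Ndufa4 were compared because some subunits have a common form and one found in certain tissues or low oxygen. Cox7a1, the form of heart and skeletal muscle, was at 25.6, 51.1 and 34.9 TPM in homozygous and 3.50, 3.38 and 9.93 TPM in treated libraries (log2 fold change -2.40, limma adjusted p = 0.0452). Its partner Cox7a2 was at 69.6, 85.4 and 86.6 TPM against 33.0, 32.3 and 63.7 TPM (log2 fold change -0.80, limma adjusted p = 0.157). Skeletal muscle markers summed to 4.90 to 19.2 TPM in homozygous and 2.02 to 3.38 TPM in treated libraries, with Myh4 and Myh1 at 0 in every treated library and 0 of 2 tested genes called. Whether muscle moved Cox7a1 was not tested.

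Cox6b2, known best from testis, was at 9.80, 12.2 and 9.01 TPM in homozygous libraries, listed at 0 in treated libraries 1 and 2 and at 5.79 TPM in library 3. Its common form Cox6b1 was at 269, 303 and 400 TPM against 149, 129 and 215 TPM, and neither passed limma (adjusted p = 0.15 and 0.1). Cox4i2, the form used at low oxygen, was at 3.57, 3.89 and 1.90 TPM against 0.437, 0.406 and 0.907 TPM (limma adjusted p = 0.126). Ndufa4l2, a gene induced at low oxygen, was at 2.39, 6.78 and 4.25 TPM against 9.98, 9.82 and 8.44 TPM (log2 fold change 0.97, limma adjusted p = 0.227). Ndufa4l2 thus lay above its homozygous range in each treated library, and Ndufa4 fell. Cox6a1 was at 91.7 ± 12.2 and 55.8 ± 27.1 TPM (SD, n = 3 and 2), and its muscle form Cox6a2 gave no value here.

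**Figure D4:**
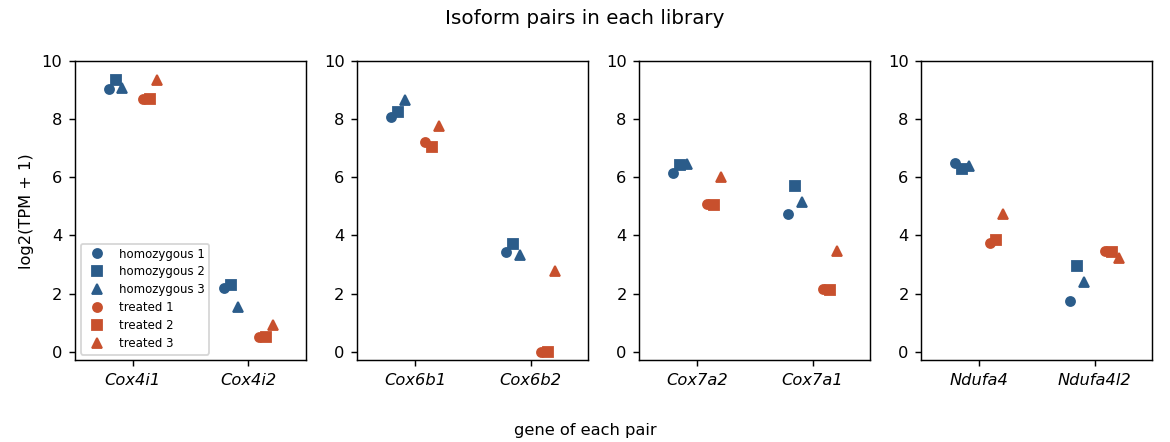
log2(TPM + 1) of 4 isoform pairs, with 1 point a library (blue homozygous, orange treated; circle, square and triangle for libraries 1, 2 and 3). Cox7a1 and Ndufa4 fell, and Ndufa4l2, at 8.44 to 9.98 TPM in treated libraries, lies above its homozygous libraries.

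Base composition moved with these values, and so did length among the members. Across 16635 tested genes with a GENCODE M21 transcript, the log2 fold change was higher at higher GC content (Spearman's rho 0.375). Its median was -0.26 in the lowest and 0.66 in the highest of 10 GC bins. With transcript length rho was 0.0377 over the same genes. Genes are not independent replicates, and all share the same libraries. Over 78 nuclear members rho was 0.351 with GC content, 0.333 with transcript length and 0.425 with coding length. Over 13 mitochondrial members, at 31.9% to 41.1% GC, it was 0.555 with GC content and 0.396 with transcript length. The 39 nuclear members with the shorter coding sequences, up to 412.5 bases, were at -0.98 in the median and 10 were called lower, and the 39 longer ones were at -0.27 with 5 called. When log2 values were adjusted in each sample for GC content and transcript length, the median was -0.02 for all tested genes, -2.05 for mitochondrial and -0.63 for nuclear members. Then 0 of 13 mitochondrial and 9 of 78 nuclear members were called lower, beside 0.649% of all tested genes, and mt-Nd6, mt-Nd2 and mt-Nd4 had log2 fold changes of -3.68, -3.33 and -2.85. This adjustment was added after the data had been seen. Of 6 nuclear noncoding RNAs 0 were called by limma and 1 was lower at an unadjusted p under 0.05. That was Malat1, at 25734, 22295 and 21924 TPM in homozygous and 9142, 9725 and 8821 TPM in treated libraries (log2 fold change -1.35, limma adjusted p = 0.142), while Neat1 and Miat had log2 fold changes of 0.054 and -0.013. The part of composition, length or RNA quality in the results was not tested further.

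**Figure D5:**
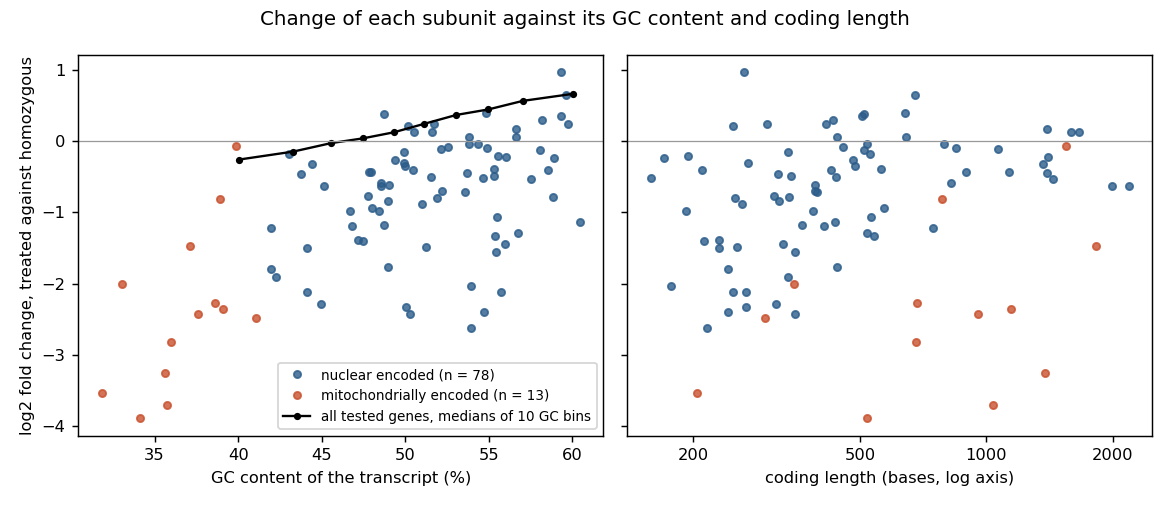
Log2 fold change of members, treated against homozygous, against the GC content of the transcript (left) and the coding length on a log axis (right), blue for 78 nuclear and orange for 13 mitochondrial members. The black line gives medians of all tested genes in 10 GC bins, from -0.26 to 0.66, and most members lie below it.

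Promoter windows of nuclear members, from 250 bases before to 50 after the start site, were searched on both strands for motifs of factors known to drive respiratory genes. RefSeq (GRCm38.p6) held windows for 67 of the 81 nuclear members by symbol. The NRF1 motif (GCGC, any base, then TGCGC) was in 17 of 67 members (25.4%), beside 9.87% of tested genes and 4.60% of all windows. The YY1 motif AAGATGGCG was in 7 (10.4%), beside 3.035% and 1.40%, and the ETS motif CCGGAAGT in 5 (7.46%), beside 7.80% and 3.89%. None of the 3 motifs is contained in another. Among members with windows the NRF1 motif was in 2 of the 13 that fell and in 15 of the 54 others. The stretches below, all upstream of the start site, show the motif in capitals in both members that fell (Atp5k and Ndufa5) and in 2 that did not pass (Cox6a1 and Atp5g2); in Ndufa5 the match is on the opposite strand.
Atp5k, chr5:108434425-108434464, minus strand: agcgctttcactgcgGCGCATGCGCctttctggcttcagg
Ndufa5, chr6:24527692-24527731, minus strand: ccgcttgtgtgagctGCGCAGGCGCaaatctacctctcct
Cox6a1, chr5:115349096-115349135, minus strand: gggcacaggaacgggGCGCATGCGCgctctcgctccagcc
Atp5g2, chr15:102671065-102671104, minus strand: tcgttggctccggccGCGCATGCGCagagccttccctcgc
A match describes letters in a window and shows no binding.

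Other genes of the pathway were counted from lists. Of 11 further subunits and electron carriers 2 fell, Ndufab1, an acyl carrier protein within complex I, from 94.7 ± 6.01 to 26.8 ± 9.53 TPM, and Cycs, cytochrome c itself, from 81.4 ± 8.04 to 30.9 ± 11.7 TPM (SD, n = 3 and 2). Of 47 assembly factors 2 fell, the copper chaperone Cox17 and Lyrm7, which acts in complex III assembly, with log2 fold changes of -2.67 and -2.54. The citric acid cycle had 1 of 19 genes lower, Sucla2, a subunit of succinyl-CoA ligase, at 160, 112 and 151 TPM in homozygous and 54.1, 54.1 and 52.9 TPM in treated libraries. Import and carrier genes had 1 of 32 lower, Micos10 (log2 fold change -1.45), of the complex that shapes cristae. Of 13 regulators of mitochondrial biogenesis 1 fell, Esrrg, an orphan nuclear receptor that drives oxidative genes, at 136, 99.9 and 130 TPM against 31.4, 29.7 and 40.9 TPM (log2 fold change -1.75, limma adjusted p = 0.0186). Ppargc1a lay on the side of Esrrg without passing, at 127, 100 and 148 TPM against 54.2, 50.7 and 86 TPM (log2 fold change -0.87, limma adjusted p = 0.111). Esrra lay on the other side without passing, at 35.6, 46 and 33.5 TPM against 68, 61.2 and 106 TPM (log2 fold change 1.10, limma adjusted p = 0.0697). At an unadjusted limma p under 0.05, 2 regulators were lower and 1 higher, beside 7.92% and 18.8% of all tested genes. Of the 13 regulators 8 lay above 0 and 5 below, with a median of 0.21. Of all tested genes 39.0% lay below 0, with a median of 0.20. In these 5 lists 0 genes rose. The shares called over all tested genes were 0.965% lower and 3.44% higher.

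Genes that copy and read the mitochondrial genome, and glycolysis, had 0 calls by limma. Of 32 genes of mitochondrial DNA expression 4 were lower and 1 higher at an unadjusted p under 0.05 (7.92% and 18.8% of all tested genes). Fastkd5, Lrpprc, Ssbp1 and Tfam were the lower ones, and Polg the higher one. The median log2 fold change of the 32 was 0.03, beside 0.20 for all tested genes and -2.43 for the mitochondrial transcripts. Of the 32, 23 lay below the median of all tested genes. Rexo2, a mitochondrial exonuclease and the most abundant of the 32, was at 267 ± 17.9 and 193 ± 102 TPM (SD, n = 3 and 2). Of 17 glycolysis genes 6 were higher and 0 lower by the same measure, with a median of 0.31 beside 0.20 for all tested genes. Aldoa was at 845 ± 8.69 and 1010.3 ± 251 TPM (SD, n = 3 and 2). For comparison, 2 of 80 cytosolic ribosomal protein genes fell and 2 rose, with a median of -0.25. Of 78 mitochondrial ribosomal protein genes 2 fell and 0 rose, with a median of -0.21. Of all tested genes 0.965% fell and 3.44% rose. Differences between lists were not tested.

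WT libraries could be read for 1 member. Cox7b was the only member with a row in the table of WT and homozygous libraries, which holds 1411 rows and 7.58% of tested genes, chosen by a rule not given in the sources used here. There Cox7b was at 397, 469 and 381 TPM in WT and 346, 317 and 325 TPM in homozygous libraries, a log2 difference of -0.33. Cox7b may be listed there because it differed, so no conclusion is drawn from this difference. The levels of Cox7b in the homozygous libraries differ between the 2 tables, so no treated library was set against WT, and no test is given.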

How the data were processed

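Strand-specific total RNA libraries were made from cochlear membranous labyrinth, per the labels' protocols. The authors deposited TPM per gene symbol in 2 tables. The submitters' processing notes name kallisto 0.51.0, DESeq without a version and GRCm39. Filters and pooling are not given in the sources used here, and TPM keeps no sequencing depth, so no counting error can be given.

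Values of repeated symbols were summed (25606 rows, 25579 symbols). A gene entered the test when 3 or more of 6 libraries had 1 TPM or more, and was tested with limma 3.58.1 in R 4.3.3 on log2(TPM + 1), with a mean per group, a mean-variance trend and treated libraries 1 and 2 averaged. Fold changes on this scale understate changes of low genes. Named members were all mitochondrial ones, all called ones, the 2 most abundant and the lowest and highest log2 fold change of each complex, isoform pairs and the members next to the 1 TPM limit; lists gave up to 2 genes a direction. Members and lists were chosen with earlier results of these data known, so patterns already seen there are no independent support. p-values measure the spread between these libraries, which the labels call biological replicates. GC content and length came from 1 GENCODE M21 transcript a gene, matched for 91 of 94 members. The adjustment used loess with a span of 0.3 over 16631 genes, fitted on nuclear encoded genes. Scripts were tested on simulated data.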

Additional observations from a re-analysis of the deposited data

How the results depend on the processing

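The counts of calls depended on the samples and the spread more than the values did. Without a filter on low values (25579 genes) 134 genes were called, with 0 mitochondrial and 0 nuclear members lower. Without the mean-variance trend the counts were 479, 0 and 8. With the 3 treated libraries as separate samples they were 3563, 11 and 29, a fit in which near-identical libraries are separate samples. With treated replicate 3 alone they were 222, 1 and 6, and adjusted for GC content and length 346, 0 and 9. Leaving out 1 library gave 63 to 2984 genes, 0 to 12 mitochondrial and 0 to 43 nuclear members. In the fit without treated replicate 3 the treated arm is 1 sample, assumed to vary like the homozygous ones. A pseudocount of 0.1 and median-of-ratios scaling kept each count within 1.5 times, but under the latter 404 of 651 calls (62.1%) were higher, against 589 of 754 (78.1%). Rescaling without mitochondrially encoded genes left 17 nuclear members lower. 0 nuclear members were called higher under any setting.

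The replicate numbers do not pair the samples: deviations from the group means had correlations of 0.0304, -0.146 and -0.117 for numbers 1, 2 and 3, and not every sample was closest to its own number. The fit with the replicate block also kept all 3 treated libraries as separate samples, and called 1485 genes, with 10 mitochondrial and 21 nuclear members lower. The same samples without the block gave the 3563, 11 and 29 above.

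Treated means were 0.332 of the homozygous mean for the mitochondrial share, 0.743 for summed nuclear TPM and 0.420 for the ratio. Without treated replicate 3 they were 0.175, 0.592 and 0.294, and with it alone 0.490, 0.895 and 0.546. The sign of the log2 fold change turned for 8 named genes, none of them called; the cause was not tested. Under median-of-ratios scaling Atp5a1 was at -0.075 and Atp5b at -0.081, and rescaled without mitochondrial genes at -0.00355 and -0.00879. Adjusted for GC content and length, Aldoa, Atp5a1, Atp5b, Atp5d and mt-Co1 were at -0.25, -0.066, -0.12, -0.24 and 0.24. Leaving out 1 library gave -0.021 to 0.24 for Aldoa, -0.085 to 0.15 for Atp5b, -0.017 to 0.45 for Atp5d, -0.18 to 0.47 for Sdhc and -0.24 to 0.30 for Uqcrq, the lowest each time without treated replicate 3. With treated replicate 3 alone Cox4i1 was at 0.20 and mt-Co1 at 0.44.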
